A study of Mus musculus with 28 samples.

Results

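The genes described here encode the structural proteins of central myelin. They are 9 of the 29878 genes listed in the counts: Mbp, Mobp, Mog, Mag, Cnp, Mal, Cldn11, Opalin and Ermn. They were chosen by name, with earlier results of these data known, and matched by Ensembl identifier to the counts of all 28 libraries. All 9 passed the filter of more than 1 CPM (counts per 1000000 counts of a library) in at least 2 libraries, as did 14979 genes in all. RNA-seq covered the dorsal striatum, the ventral striatum, the hypothalamus and the motor cortex. The mice were aged 2 to 3 months on a C57Bl/6 background and were wild-type (WT), heterozygous for a knockout of Hdc (Het) or homozygous for it (Hdc-KO). Hdc encodes histidine decarboxylase, the enzyme that makes histamine, and the knockout is present from conception in every cell. Dorsal striatum had 2 WT, 3 Het and 2 KO libraries. Ventral striatum and hypothalamus each had 3 WT, 3 Het and 2 KO libraries. Motor cortex had 1 WT, 2 Het and 2 KO libraries, so its WT level rests on a single library. Libraries are named by the number in their labels, from 1 to 8, and each number has 1 genotype in every region. Nothing in the sources used here says that libraries of a group are separate animals, so p-values measure only the spread between these samples.

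Myelin is the sheath of compacted membrane that oligodendrocytes wrap around axons, and it is densest in white matter tracts. Its inner leaflets are held together by myelin basic protein, while other proteins sit at the outer surface, at the face toward the axon, or in the tight junctions that seal the turns of the sheath. The genes for these proteins are switched on together when an oligodendrocyte matures, under the transcription factors SOX10 and MYRF. The striatum is crossed by bundles of myelinated fibres of the internal capsule, and the cortical grey matter holds fewer of them. In bulk tissue, fewer oligodendrocytes and less RNA per oligodendrocyte cannot be told apart.

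The stretches of 250 bases just before the RefSeq start sites (GRCm38.p6) show the control regions of these genes. A start site was found for 8 of the 9 genes. Mag had 3 sites, and only the stretch before the site nearest the annotated 5′ end of the gene is described. The stretches were searched on both strands for ACAAAG, the core of the sequence bound by SOX factors, and for CTGGCAC, a motif bound by MYRF. The motifs were chosen after the sequences had been read, and no letters are shared between matches. A match is a description of the letters and no evidence of binding. Mobp held 6 SOX cores, the highest number in any of the 32851 stretches of this length in the mouse table. In all, 16.46% of them held at least 1 and 2 of them (0.006%) held 5 or more. Mag and Cnp each held 1 SOX core and 1 MYRF motif, and 4.19% of all stretches held the latter. Opalin held 1 SOX core. In Mog, Mal, Cldn11 and Ermn these letters were not in the window. The 4 stretches with a match are printed 5′ to 3′ on the strand of the gene, with the matches in capitals. Mobp is chr9:120149492-120149741 on the plus strand, Mag is chr7:30914864-30915113 on the minus strand, Cnp is chr11:100574689-100574938 on the plus strand and Opalin is chr19:41077114-41077363 on the minus strand.
Mobp: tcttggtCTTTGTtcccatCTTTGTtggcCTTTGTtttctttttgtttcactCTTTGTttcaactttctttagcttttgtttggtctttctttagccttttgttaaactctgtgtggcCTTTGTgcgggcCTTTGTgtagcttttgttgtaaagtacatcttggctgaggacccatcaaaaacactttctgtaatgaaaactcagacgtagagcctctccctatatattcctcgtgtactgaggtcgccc
Mag: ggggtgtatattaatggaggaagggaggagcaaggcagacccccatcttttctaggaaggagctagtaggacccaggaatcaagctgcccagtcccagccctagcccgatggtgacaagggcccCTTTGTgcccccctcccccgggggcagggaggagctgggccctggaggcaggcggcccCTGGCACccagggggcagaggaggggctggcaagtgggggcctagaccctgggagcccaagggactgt
Cnp: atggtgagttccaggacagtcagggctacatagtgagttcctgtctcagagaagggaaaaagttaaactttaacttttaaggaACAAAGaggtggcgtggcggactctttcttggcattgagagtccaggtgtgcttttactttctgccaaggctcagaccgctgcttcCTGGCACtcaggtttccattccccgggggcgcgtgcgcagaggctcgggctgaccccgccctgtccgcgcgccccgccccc
Opalin: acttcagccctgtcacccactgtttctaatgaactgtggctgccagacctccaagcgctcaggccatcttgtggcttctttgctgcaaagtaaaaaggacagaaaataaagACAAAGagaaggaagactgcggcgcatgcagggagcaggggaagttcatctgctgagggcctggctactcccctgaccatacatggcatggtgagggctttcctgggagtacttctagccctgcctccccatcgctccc

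Libraries held between 3536802 and 5150280 counts on genes. Hdc, the targeted gene, had 0 to 6 counts in WT libraries outside the hypothalamus, 17 to 33 in Het libraries and 29 to 51 in KO libraries there. In the hypothalamus it had 79 to 111 counts in WT, 78 to 117 in Het and 54 to 66 in KO libraries. The KO libraries thus had fewer Hdc counts than WT in the hypothalamus alone, and the genotypes are named as labelled. The counts cover the whole gene, so the deleted part was not checked. The tissues held the markers of their region. Summed over 10 genes of spiny projection neurons, dorsal striatum had 8775 to 12371 CPM and motor cortex 271 to 325 CPM, and 8 genes of cortical excitatory neurons summed to 2136 to 2279 CPM in motor cortex and 122 to 447 CPM in dorsal striatum. Over the spiny neuron genes ventral striatum had 2503 to 4322 CPM in WT and 3597 to 3788 CPM in Het. Its KO libraries had 2216 CPM (KO 8) and 4858 CPM (KO 7), and the part of this spread in the comparisons was not tested. KO libraries stood apart in 3 regions. In dorsal striatum the highest sum over the cortical genes was that of KO 7, at 447 CPM, against 122 to 245 CPM in the other libraries. In hypothalamus KO 8 had 453 CPM over the same genes, against 106 to 151 CPM in the others. KO 8 of the dorsal striatum had 2892 CPM over 8 choroid plexus genes, against 3.90 to 70.3 CPM in the other libraries of that region, and Aqp1 and Slc4a5 of the 10 genes listed did not pass the filter. KO ventral striatum had 50.8 CPM over 4 genes of peripheral myelin in 1 library and 222 CPM in the other. The WT dorsal striatum libraries had 41.7% and 48.8% of their counts on mitochondrial genes, and the KO libraries of that region had 33.1% and 34.8%. CPM values are scaled by the TMM method, whose factors were 0.734 and 0.857 in the WT and 0.964 and 0.975 in the KO libraries of the dorsal striatum.

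The 9 genes differed widely in level. Per kilobase of exon, the median over the 28 libraries was 169 CPM for Mbp, the abundant protein that compacts the cytoplasmic faces of the membrane. It lies on chromosome 18, from 82475146 to 82585637 (GRCm38). Mal, a small membrane protein of lipid-rich domains (chromosome 2, 127633226 to 127656695), followed with 94.2 CPM per kilobase. Cldn11, the claudin of the tight junctions of myelin (chromosome 3, 31149920 to 31164324), had 70.6 and Cnp, the phosphodiesterase of the cytoplasmic channels of the sheath (chromosome 11, 100574904 to 100591729), had 63.5. Mog, an immunoglobulin-like protein of the outermost surface (chromosome 17, 37010743 to 37023398), had 26.3. Mag, the adhesion protein that faces the axon (chromosome 7, 30899176 to 30914873), had 25.6, and Mobp, a cytoplasmic protein of compact myelin like Mbp (chromosome 9, 120149707 to 120181484), had 24.9. The lowest were Ermn, an actin-binding protein of the outer cytoplasmic loop (chromosome 2, 58045113 to 58052864), with 14.4, and Opalin, a transmembrane protein of oligodendrocytes (chromosome 19, 41061710 to 41077113), with 4.24 CPM per kilobase. Between the lowest and the highest library, the level per kilobase ranged from 76.0 to 255 for Mbp and from 2.202 to 7.214 for Opalin. The ranges of Mog, Mag and Mobp overlapped almost entirely, and the order among them is not resolved. With the length of the longest transcript in place of merged exons, Cnp stood above Cldn11 and Mobp above Mag and Mog. Opalin rested on 24 to 102 counts per library and Mbp on 2596 to 11085. Exons of Cnp share 154 bases with Dnajc7 on the opposite strand and those of Ermn share 237 bases with Galnt5. Exons of Mobp share 79 bases with an uncounted transcript. The reads carry no strand, so reads in the bases shared with Dnajc7 and Galnt5 could not be given to either gene.

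The first comparison is between regions, averaged over the genotypes with equal weight. All 9 genes were higher in dorsal striatum, ventral striatum and hypothalamus than in motor cortex. The median log2 fold change of the 9 was 0.87 for dorsal striatum (0.03 over all genes), 0.98 for ventral striatum (0.04) and 0.85 for hypothalamus (0.05). In edgeR's likelihood ratio test with Benjamini-Hochberg adjustment, 9 of 9 passed an adjusted p of 0.05 against motor cortex in each. Of the 14979 genes tested, 21.4%, 22.2% and 25.4% were called higher in the same 3 comparisons. Every library lay above every motor cortex library for 7 of the 9 genes in dorsal striatum, 9 in ventral striatum and 7 in hypothalamus, and this held for 11.8%, 10.5% and 14.9% of all genes. The genes that overlapped were Mog and Opalin in both cases.

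Mbp had 644 to 1048 CPM in the 5 motor cortex libraries (median 973). It had 1148 to 2118 CPM in dorsal striatum (median 1678), 1181 to 1934 CPM in ventral striatum (median 1741) and 1212 to 2160 CPM in hypothalamus (median 1418). The motor cortex was thus below every other library, and the other regions overlapped. The log2 fold change over motor cortex was 0.87 in dorsal striatum (95% confidence interval 0.62 to 1.13), 0.88 in ventral striatum (0.64 to 1.13) and 0.76 in hypothalamus (0.51 to 1.00). Its partner in compact myelin, Mobp, had 67.8 to 113 CPM in motor cortex (median 93.4) and 134 to 264 CPM in dorsal striatum (median 220). In dorsal striatum Mobp was 2.16-fold over motor cortex, which was the largest of the 9 differences for that region (log2 fold change 1.11, adjusted p = 1.89e-20, edgeR). It was 1.97-fold in ventral striatum and 1.86-fold in hypothalamus.

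Among the membrane and junction proteins, the ventral striatum gave the largest differences. Mal had 107 to 155 CPM in motor cortex (median 128) and 249 to 364 CPM in ventral striatum (median 316), a log2 fold change of 1.24 (95% confidence interval 0.99 to 1.49). Cldn11 had 49.3 to 82.8 CPM in motor cortex (median 71.5) and 109 to 178 CPM in ventral striatum (median 154), a log2 fold change of 1.18 (0.94 to 1.41). Opalin had 6.49 to 9.85 CPM in motor cortex (median 7.72), 10.7 to 21.3 CPM in ventral striatum (median 18.9), 8.84 to 16.9 CPM in dorsal striatum (median 12.8) and 9.49 to 18.3 CPM in hypothalamus (median 11.98). Its interval was the widest of the 9 in each of the 3 comparisons with motor cortex, 0.75 to 1.48 in ventral striatum.

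The surface proteins and the enzyme of the cytoplasmic channels gave smaller or similar differences. Mog had 19.04 to 33.2 CPM in motor cortex (median 29.1), 30.6 to 60.1 in dorsal striatum (median 45.4), 36.1 to 64.5 in ventral striatum (median 50.4) and 29.8 to 71.9 in hypothalamus (median 45.4). Mag had 46.6 to 71.0 CPM in motor cortex (median 55.6), and its medians elsewhere were 106, 111 and 112 CPM in the same order. Cnp had 95.4 to 138 CPM in motor cortex (median 119) and medians of 247, 249.5 and 231 CPM elsewhere. Ermn had 21.1 to 40.1 CPM in motor cortex (median 31.9) and medians of 53.4, 60.5 and 60.6 CPM. For these 4 genes the log2 fold changes over motor cortex ran from 0.74 for Mog in dorsal striatum to 1.07 for Cnp in ventral striatum.

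**Figure D1:**
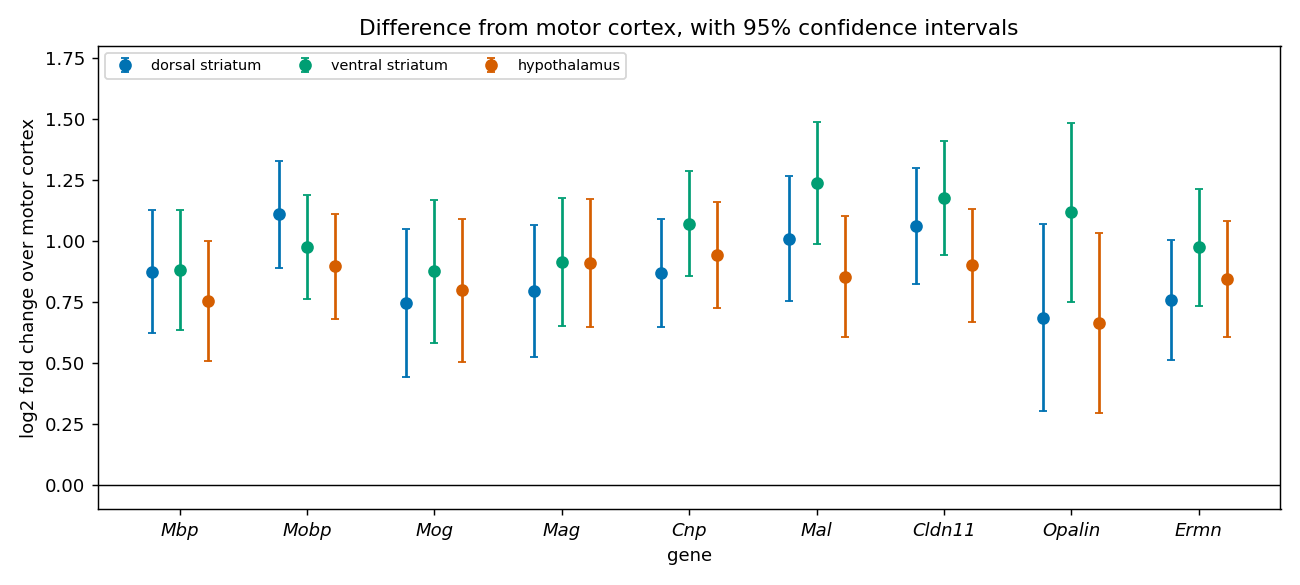
Log2 fold change (vertical axis) of each of the 9 genes (horizontal axis) in dorsal striatum, ventral striatum and hypothalamus over motor cortex, averaged over genotypes; points are estimates and bars are 95% confidence intervals. All intervals lie above 0, with Mobp at 1.11 in dorsal striatum and Mal at 1.24 in ventral striatum as the highest of their regions.

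Dorsal striatum, ventral striatum and hypothalamus differed much less from each other. Between dorsal and ventral striatum 1 of the 9 genes was called, Opalin, which was lower in dorsal striatum with a log2 fold change of -0.43 (adjusted p = 0.0211, edgeR), and 14.4% of all genes were called lower there. Between dorsal striatum and hypothalamus the only call was Mobp, higher by 0.21 on the log2 scale in dorsal striatum (adjusted p = 0.0437), where 25.5% of all genes were called higher. With libraries scaled by size alone Mobp stood at -0.15, while the median of all genes in that comparison moved to -0.41. Between ventral striatum and hypothalamus Mal, Opalin and Cldn11 were higher in ventral striatum, by 0.38, 0.45 and 0.28 (adjusted p = 0.00131, 0.00563 and 0.0139), and 19.7% of all genes were called higher. In each of these comparisons all 9 genes overlapped between the regions.

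**Figure D2:**
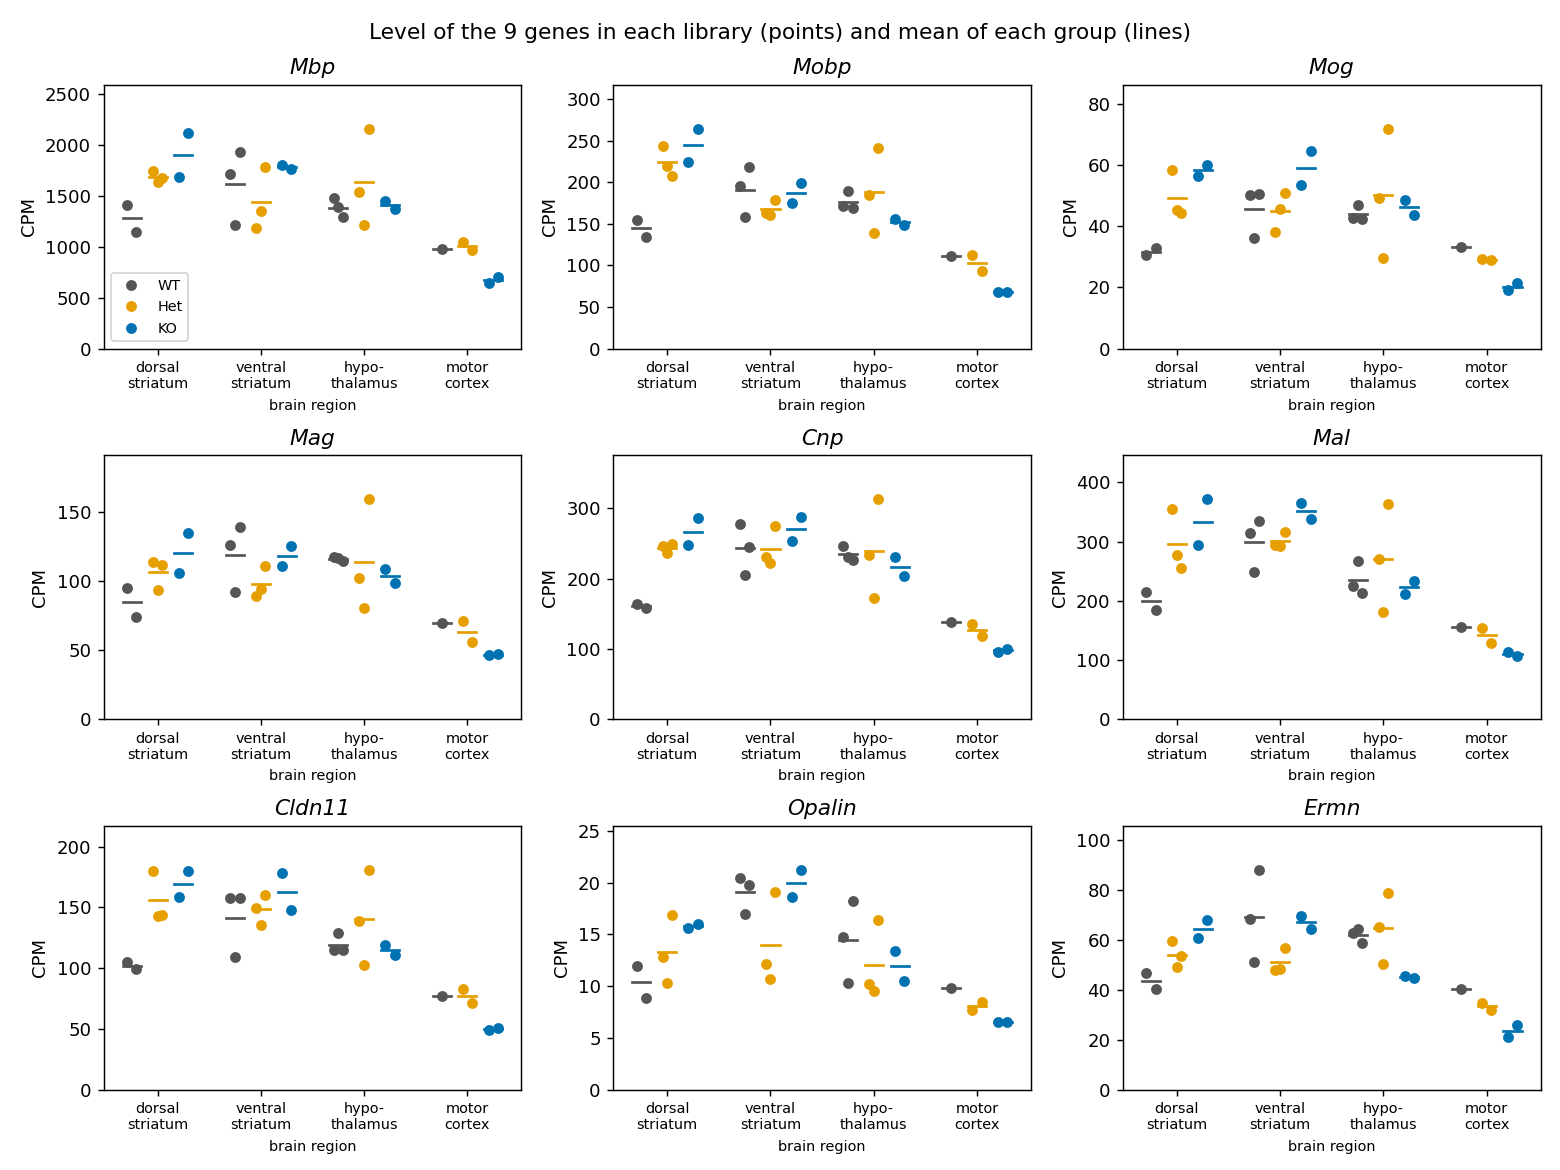
Level of each of the 9 genes in each of the 28 libraries, in CPM on a linear axis from 0, by region and genotype (points) with the group mean (line). The 5 motor cortex libraries are the lowest for 7 of the 9, the 2 WT libraries are below the 2 KO libraries in dorsal striatum for all 9, and Het 6 is the highest hypothalamus library for 8 of the 9, Opalin being the exception.

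Ratios between the genes were compared because they do not depend on the scaling of a library. The ratio of a gene is its count over the geometric mean of the counts of the other 8, on a log2 scale. Of 54 comparisons (9 genes, 6 pairs of regions), 9 passed an adjusted p of 0.05 in exact two-sided permutation tests, adjusted over the 54. Mobp took a larger share in dorsal striatum than in any other region. Its log2 ratio in the 7 dorsal striatum libraries ran from 0.65 to 0.92 (median 0.73). It ran from 0.24 to 0.54 in the 8 ventral striatum libraries (median 0.46), from 0.45 to 0.67 in the 8 hypothalamus libraries (median 0.52) and from 0.35 to 0.59 in the 5 motor cortex libraries (median 0.46). All 7 dorsal striatum libraries were therefore above all ventral striatum and motor cortex libraries, and they overlapped the hypothalamus. The mean difference was 0.31 from ventral striatum (exact permutation p = 0.000155, the smallest possible, adjusted p = 0.00839), 0.28 from motor cortex (p = 0.00126, adjusted p = 0.0189) and 0.20 from hypothalamus (p = 0.000777, adjusted p = 0.0189). Against Mbp alone, the Mobp difference was 0.13 from ventral striatum (adjusted p = 0.245), 0.09 from hypothalamus (adjusted p = 0.283) and 0.27 from motor cortex (adjusted p = 0.0336, exact permutation tests). At an unadjusted p under 0.05, 3 of the 9 ratios differed between dorsal and ventral striatum, 5 between dorsal striatum and hypothalamus and 2 between dorsal striatum and motor cortex. The counts were 3 between ventral striatum and hypothalamus, 4 between ventral striatum and motor cortex and 1 between hypothalamus and motor cortex. The ratio of any gene to the mean of the 9 differed at an unadjusted p under 0.05 for 22.9% of all genes between dorsal and ventral striatum, 44.9% between dorsal striatum and hypothalamus and 73.4% between dorsal striatum and motor cortex. The shares were 41.5% between ventral striatum and hypothalamus, 80.1% between ventral striatum and motor cortex and 75.8% between hypothalamus and motor cortex. In these shares the 9 genes are the divisor for every gene, so a shift of the 9 themselves enters every ratio. The shares therefore cannot serve as the number to be met by chance among the 9 ratios.

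The other shifts that passed were smaller than those of Mobp from ventral striatum and motor cortex. The Mbp ratio was higher in dorsal than in ventral striatum by 0.16 and lower in ventral striatum than in motor cortex by 0.19 (both adjusted p = 0.0466, exact permutation tests). Cldn11 was higher in dorsal striatum than in motor cortex by 0.21 (adjusted p = 0.0364). Mal was higher in ventral striatum than in hypothalamus, by 0.24 (adjusted p = 0.0364), and than in motor cortex, also by 0.24 (adjusted p = 0.0466). Mag took a smaller share in ventral striatum than in hypothalamus, by 0.19 (adjusted p = 0.0189). The ratios of Mog, Cnp, Opalin and Ermn gave no adjusted p under 0.05 between any of the regions. The Opalin ratio differed by -0.32 between dorsal and ventral striatum (adjusted p = 0.113, exact permutation test). Opalin is among the other 8 genes in the Mobp ratio. All region ratios pool the genotypes. With all libraries of a number left out in turn, between 1 and 8 of the 54 comparisons passed, and Mobp in dorsal against ventral striatum passed each time (0.28 to 0.34).

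**Figure D3:**
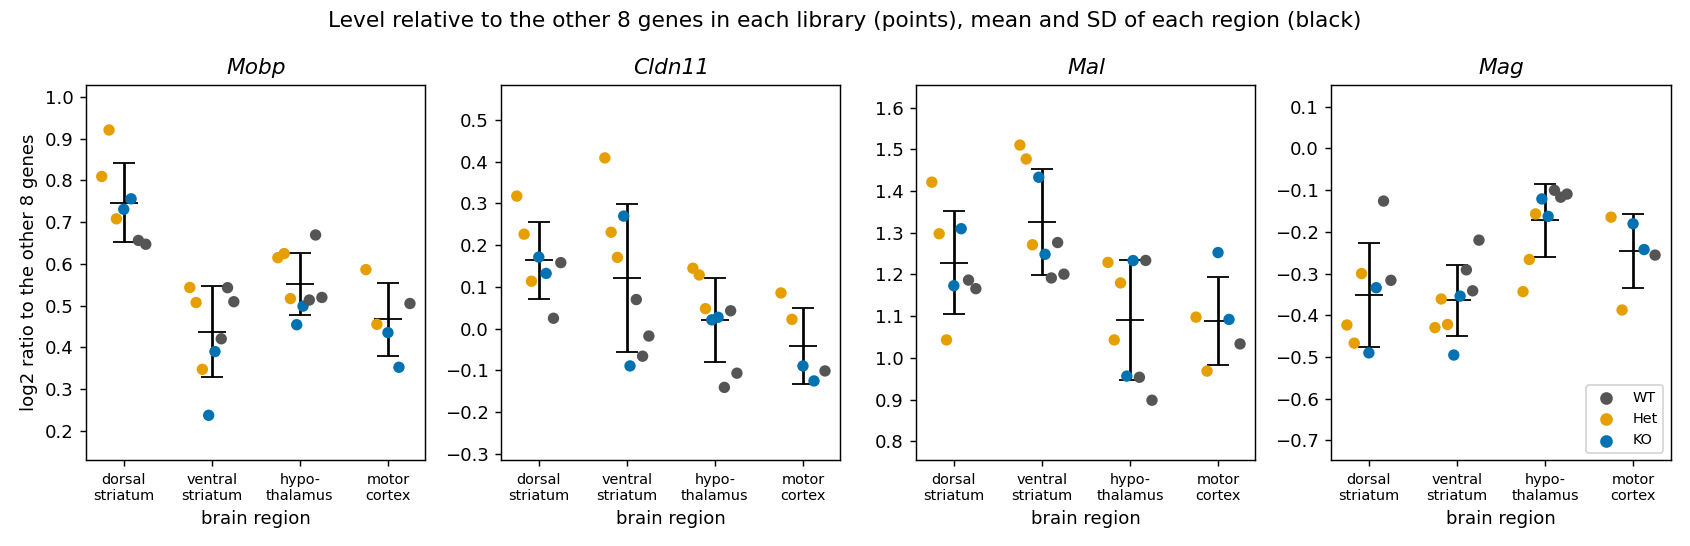
Log2 ratio of Mobp, Cldn11, Mal and Mag to the geometric mean of the other 8 genes (vertical axis) in each library by region (horizontal axis); points are libraries coloured by genotype, black marks are region means with SD. Mobp in dorsal striatum (0.65 to 0.92) lies above all ventral striatum and motor cortex libraries. The mean of Mal is highest in ventral striatum, where its libraries overlap those of dorsal striatum.

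The second comparison is between Hdc-KO and WT within a region. In dorsal striatum all 9 log2 fold changes were above 0, as for 49.3% of all genes, and Mobp, Cnp and Cldn11, 3 of the 9, passed the test. Mobp had 154 and 134 CPM in the WT libraries and 224 and 264 CPM in the KO libraries, a log2 fold change of 0.76 (95% confidence interval 0.41 to 1.11, adjusted p = 0.0187, edgeR). Cnp had 164 and 159 CPM in WT and 247 and 286 CPM in KO, a log2 fold change of 0.72 (0.36 to 1.08, adjusted p = 0.0337). Cldn11 had 105 and 99.3 CPM in WT and 159 and 180 CPM in KO, a log2 fold change of 0.73 (0.35 to 1.11) with an adjusted p of 0.04996, just inside the threshold. The KO and WT values of these 3 genes did not overlap. Of all genes tested, 0.354% were called higher in this comparison.

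The other 6 genes had the same direction without passing the test. Mog had 30.6 and 32.9 CPM in WT and 56.6 and 60.1 CPM in KO, the largest log2 fold change of the 9 at 0.88 (adjusted p = 0.0791, edgeR). Mal had 214 and 185 CPM in WT and 294 and 371 CPM in KO (0.74, adjusted p = 0.0909). Mbp, the most abundant, had 1414 and 1148 CPM in WT and 1685 and 2118 CPM in KO (0.57, adjusted p = 0.335). These pairs did not overlap either. Ermn had 46.8 and 40.4 CPM in WT and 60.8 and 68.0 CPM in KO (0.57, adjusted p = 0.265). Mag had 95.3 and 74.1 CPM in WT and 106 and 135 CPM in KO (0.51, adjusted p = 0.508). Opalin had 11.99 and 8.84 CPM in WT and 15.7 and 16.01 CPM in KO (0.62, adjusted p = 0.604). Across the 9 genes the KO libraries were above the WT libraries without exception, as for 18.8% of all genes, and the unadjusted p was under 0.05 for 9 of 9 and for 5.27% of all genes in this direction. The 9 genes were chosen with earlier results of these data known, so the shares are no independent test of them. Summed over the 9 genes, WT had 2235 and 1882 CPM and KO 2848 and 3498 CPM.

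The number of calls in dorsal striatum was not stable. The quasi-likelihood test of edgeR called 0 of the 9 genes and DESeq2 called 2, while scaling by library size alone called 8. That scaling also moved the median of all genes in this comparison. Without KO 8, WT 1 or WT 2, 0 genes were called, with median log2 fold changes of 0.60, 0.77 and 0.64, and without KO 7, 4 were called (median 0.82). The higher choroid plexus level was in KO 8 alone. In KO 7 the same 8 genes summed to 8.29 CPM, within the WT range of 3.90 to 13.1 CPM, and all 9 myelin genes were above both WT libraries there. KO 7 had 447 CPM over the 8 cortical excitatory genes, against 132 and 245 CPM in WT. Their median log2 fold change was 1.51 with 0 of 8 called, and the part of these genes in the result was not tested. In the KO against WT comparison 7 of the 8 choroid plexus genes were called higher, beside 0.354% of all genes. The part of these choroid plexus genes in the result was not tested either. With mitochondrial genes left out, 3 of the 9 myelin genes were called and the median was 0.73. The 10 genes of spiny neurons summed to 10032 to 12371 CPM in WT and 9037 to 10270 CPM in KO. All 10 were lower in KO (median log2 fold change -0.31, 0 of 10 called), and their part in the result was not tested.

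In the other regions no member was called. In ventral striatum the 9 log2 fold changes of KO over WT lay between -0.05 for Ermn and 0.37 for Mog, with a median of 0.14 (0.01 over all genes). edgeR's likelihood ratio test, its quasi-likelihood test and DESeq2 called 0 of the 9, with 0 at an unadjusted p under 0.05. Of all genes, 0.0601% were called higher and 5.4% had an unadjusted p under 0.05. The KO libraries lay above all WT libraries for Mal and Mog, 2 of the 9, as for 8.51% of all genes. Mobp, for example, had 196, 158 and 218 CPM in WT and 174 and 199 CPM in KO, with a 95% confidence interval of -0.36 to 0.29 around -0.03. In hypothalamus the median was -0.11, and 0.02% of all genes were called lower. The 3 tests called 0 of the 9, and 1, Ermn, had an unadjusted p under 0.05, as did 2.32% of all genes in that direction. Ermn had 62.5, 64.2 and 58.6 CPM in WT and 45.5 and 44.7 CPM in KO, so both KO libraries were below all WT libraries (log2 fold change -0.45, adjusted p = 0.578). The same held for Mobp and Mag, so for 3 of the 9 in all, and for 10% of all genes. Mbp had 1479, 1388 and 1292 CPM in WT and 1448 and 1376 CPM in KO there, which overlapped (0.03).

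In motor cortex all 9 log2 fold changes over the single WT library were below 0, as for 49% of all genes, and none passed the test. Mobp had 112 CPM in WT and 68.1 and 67.8 CPM in KO, a log2 fold change of -0.72 (95% confidence interval -1.17 to -0.27, adjusted p = 0.717, edgeR). Mbp had 980 CPM in WT and 644 and 702 CPM in KO (-0.54, adjusted p of 1). Ermn had 40.1 CPM in WT and 21.1 and 25.7 CPM in KO, the lowest of the 9 at -0.79 (adjusted p = 0.772). The median of the 9 was -0.60, 7 of 9 had an unadjusted p under 0.05, and both other tests also called 0. Of all genes, 0.0134% were called lower in this comparison and 2.11% were lower at an unadjusted p under 0.05. Both KO libraries were below the WT library for 9 of 9 members and for 33.7% of all genes. The Het libraries offer a replicated comparison in this region. Both KO libraries were below both Het libraries for all 9 genes, as for 16.7% of all genes, with log2 fold changes from -0.63 for Cldn11 to -0.32 for Opalin. The 3 tests called 0 of them, with 6 of 9 at an unadjusted p under 0.05. Of all genes, 0.00668% were called lower and 2.13% had an unadjusted p under 0.05 in that direction. Cldn11 had 82.8 and 71.5 CPM in Het and 49.3 and 50.5 CPM in KO. Mobp had 113 and 93.4 CPM in Het.

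**Figure D4:**
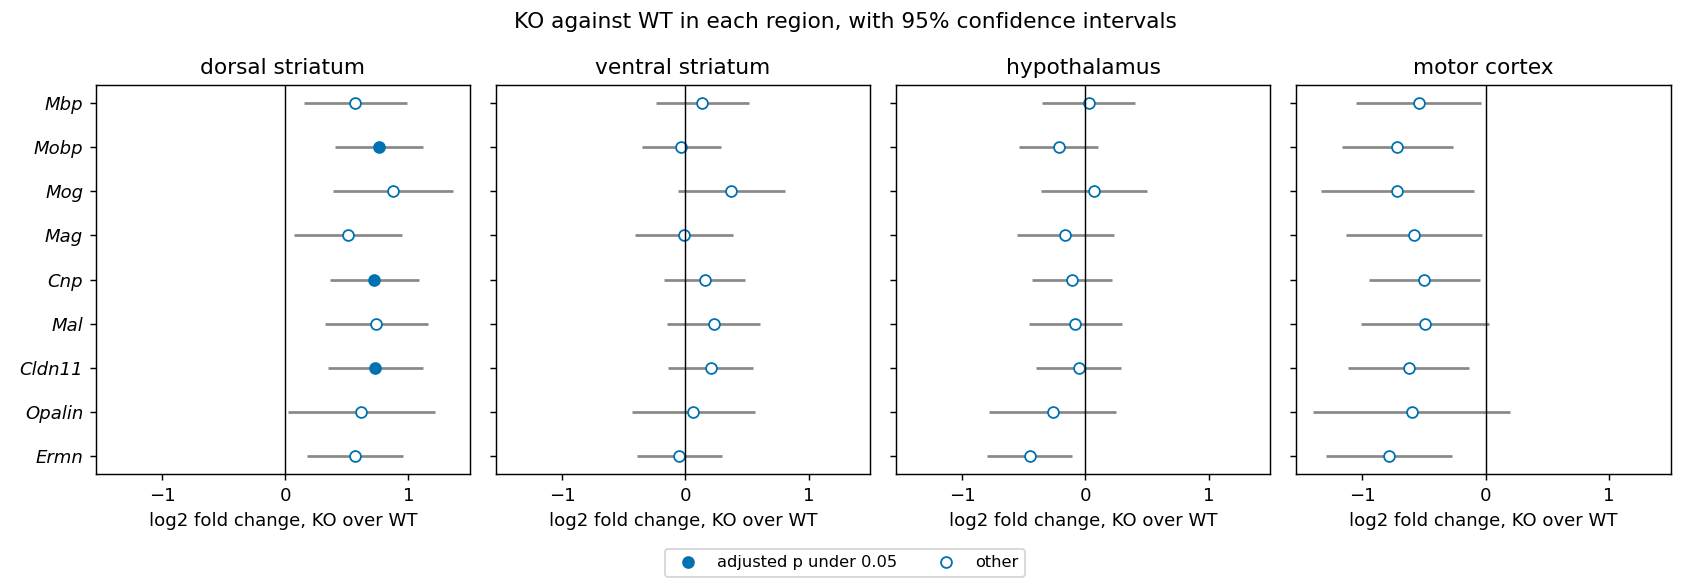
Log2 fold change of KO over WT (horizontal axis) of each of the 9 genes (vertical axis) in each of the 4 regions; points are estimates, filled where the adjusted p was under 0.05, and lines are 95% confidence intervals. All 9 points are above 0 in dorsal striatum and below 0 in motor cortex, where WT is 1 library.

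The difference between regions was tested itself, as the KO minus WT change in dorsal striatum minus that in another region. Against motor cortex, 5 of the 9 genes were called, Mobp (1.48, 95% confidence interval 0.90 to 2.05, adjusted p = 0.00488, edgeR), Cldn11 (1.36, adjusted p = 0.0294), Cnp (1.22, adjusted p = 0.0307), Ermn (1.35, adjusted p = 0.0344) and Mog (1.59, adjusted p = 0.0494). Of all genes, 0.12% were called in this direction and 3.25% had an unadjusted p under 0.05, as did 9 of the 9. All 9 differences were positive, from 1.09 for Mag to 1.59 for Mog, on the log2 scale. They rest on the single WT library of motor cortex. The quasi-likelihood test called 0 and DESeq2 called 1. Without WT 2 of the dorsal striatum 0 were called, and without WT 1 or KO 8 of the dorsal striatum, or KO 7 or KO 8 of the motor cortex, 1 was called each time. Against hypothalamus, 1 gene was called, Mobp (0.98, 95% confidence interval 0.50 to 1.46, adjusted p = 0.0448), beside 0.0935% of all genes, and 8 of 9 had an unadjusted p under 0.05, beside 4.03%. Both other tests called 0, as did the fit without any of the WT or KO libraries of the 2 regions except KO 7 of the dorsal striatum, where 2 were called. Against ventral striatum the 3 tests called 0, with 4 of 9 at an unadjusted p under 0.05, beside 0% and 2.73% of all genes in this direction. The differences there were again positive for all 9, from 0.43 for Mbp to 0.79 for Mobp. The WT and KO libraries of the dorsal striatum are shared by the 3 comparisons, so these are not independent of each other.

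Heterozygous mice gave the third genotype. In dorsal striatum all 9 genes had a positive log2 fold change of Het over WT, from 0.32 for Ermn to 0.64 for Mog (median 0.57, 0.01 over all genes). Likelihood ratio, quasi-likelihood and DESeq2 tests called 0 of the 9, with 6 at an unadjusted p under 0.05. Of all genes, 0.0534% were called higher and 4.87% had an unadjusted p under 0.05 in that direction. Mobp had 244, 220 and 208 CPM in Het, above both WT libraries (0.64, adjusted p = 0.0944, edgeR). Cnp had 247, 236 and 249 CPM (0.59, adjusted p = 0.178) and Cldn11 had 180, 143 and 144 CPM (0.61, adjusted p = 0.199). All Het libraries were above both WT libraries for 7 of the 9 genes, against 11.3% of all genes, the exceptions being Mag and Opalin. All 10 genes of spiny neurons were at a negative log2 fold change of Het over WT (median -0.25, 0 called), with sums of 8775 to 10325 CPM in Het and 10032 to 12371 CPM in WT. All 8 choroid plexus genes were at a positive one (median 3.20, 0 called), with sums of 13.5 to 70.3 CPM in Het and 3.90 to 13.1 CPM in WT. Mitochondrial genes took 31.9% to 40.1% of the Het counts and 41.7% to 48.8% of the WT counts. The part of these in the result was not tested. The Het and KO comparisons share the WT libraries. Between KO and Het in dorsal striatum the log2 fold changes were 0.12 to 0.25. The 3 tests called 0 with 0 at an unadjusted p under 0.05, against 0.334% of all genes called higher, and the interval of Mobp was -0.20 to 0.44. The summed CPM of the 9 genes was 3014, 2715 and 2760 in Het, between the WT and KO means of 2058 and 3173.

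Outside the dorsal striatum the Het libraries gave no call against WT. The median log2 fold change was -0.17 in ventral striatum, 0.09 in hypothalamus and -0.13 in motor cortex. The 3 tests called 0 of the 9 in each, with 1, 0 and 0 genes at an unadjusted p under 0.05, while 0.0534%, 0.0935% and 0.0134% of all genes were called in either direction. The 1 gene was Ermn in ventral striatum, with 68.3, 51.2 and 88.0 CPM in WT and 47.8, 48.5 and 56.8 CPM in Het (-0.44, adjusted p = 0.993, edgeR), beside 2.19% of all genes lower at an unadjusted p under 0.05. KO against Het gave 0 calls in ventral striatum and hypothalamus by the 3 tests, with 2 genes (Ermn and Opalin) and 1 gene (Ermn) at an unadjusted p under 0.05 and 0.0401% and 0.0134% of all genes called higher and lower. At an unadjusted p under 0.05 the shares of all genes in these directions were 1.7% and 2.04%. Medians were 0.27 and -0.21. The 3 Het libraries of the hypothalamus differed strongly among themselves. Mbp had 1541, 1212 and 2160 CPM in libraries 4, 5 and 6, and the sum of the 9 genes was 2595, 1976 and 3585 CPM, a range of 1.81-fold, where the 3 WT libraries ranged 1.10-fold. Library 6 was the highest and library 5 the lowest of the 8 hypothalamus libraries for 7 of the 9 genes, all but Opalin and Ermn.

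Ratios among the 9 genes were also compared between genotypes. No exact test can reach a p under 0.05 here, since the smallest is 0.333 with 2 libraries against 2 and 0.1 with 3 against 2 or 3. In the 6 comparisons of KO or Het with WT outside the motor cortex, every library lay below every WT library in 5 for Mag and in 4 for Ermn. The mean ratio of Opalin was below WT in all 6, by 0.06 to 0.37, and its groups overlapped in each. The KO and Het comparisons of a region share its WT libraries, so the 6 are not independent. In motor cortex, against the single WT library, the Mag difference was 0.04 in KO and -0.02 in Het. There the difference of Opalin was 0.02 in KO and -0.16 in Het, and that of Ermn was -0.19 and -0.15. The Ermn log2 ratio in dorsal striatum was -1.28 and -1.30 in WT, -1.47, -1.51 and -1.50 in Het and -1.39 and -1.45 in KO, with every Het and KO library below both WT libraries. In hypothalamus it was -1.12, -1.08 and -1.20 in WT and -1.54 and -1.45 in KO. In ventral striatum it was -1.29, -1.29 and -0.97 in WT and -1.44, -1.44 and -1.52 in Het, while the KO libraries, at -1.25 and -1.44, overlapped WT. The Mag ratio was below WT without overlap in KO of dorsal striatum, ventral striatum and hypothalamus and in Het of the last 2, by 0.03 to 0.19. The groups of KO and WT did not overlap for 3, 3 and 5 of the 9 ratios in dorsal striatum, ventral striatum and hypothalamus. For the ratio of any gene to the mean of the 9 this was so for 74.4%, 13.4% and 29.6% of all genes. Between Het and WT it was so for 2, 4 and 3 of the 9, against 58.8%, 6.2% and 3.56%. The shares of all genes also hold any shift of the 9 themselves, which are the divisor. They therefore cannot show how many of the 9 ratios would separate by chance.

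The 9 genes rose and fell together from library to library. Over the 28 libraries, the 36 pairwise Pearson correlations of log2 CPM ran from 0.75 to 0.98 (median 0.92). After the mean of each region was taken off, they ran from 0.45 to 0.94 (median 0.86). These are descriptions: libraries of a region share their tissue, and all share the scaling. Against the mean of the other 8, Cnp had the highest correlation (0.98) and Opalin the lowest (0.82). With region means removed Mobp had the highest (0.94) and Opalin the lowest (0.65). The tightest pair was Mal and Cldn11. Their count ratio was 1.99 in the median library and stayed between 1.76 and 2.29, an SD of 0.11 on the log2 scale, where counting alone gives 0.08. The ratio of Mag to Cnp was next, at 0.467 (0.387 to 0.581, SD 0.14, counting 0.09). The widest were the pairs with Opalin, the gene with the fewest counts. Mobp to Opalin ran from 9.25 to 21.3 (SD 0.35, counting 0.21) and Cldn11 to Opalin from 6.28 to 14.0 (SD 0.34, counting 0.21). Within regions the tightest pair was again Mal and Cldn11 (0.10), and the widest were Mal and Opalin (0.33) and Cldn11 and Opalin (0.32).

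**Figure D5:**
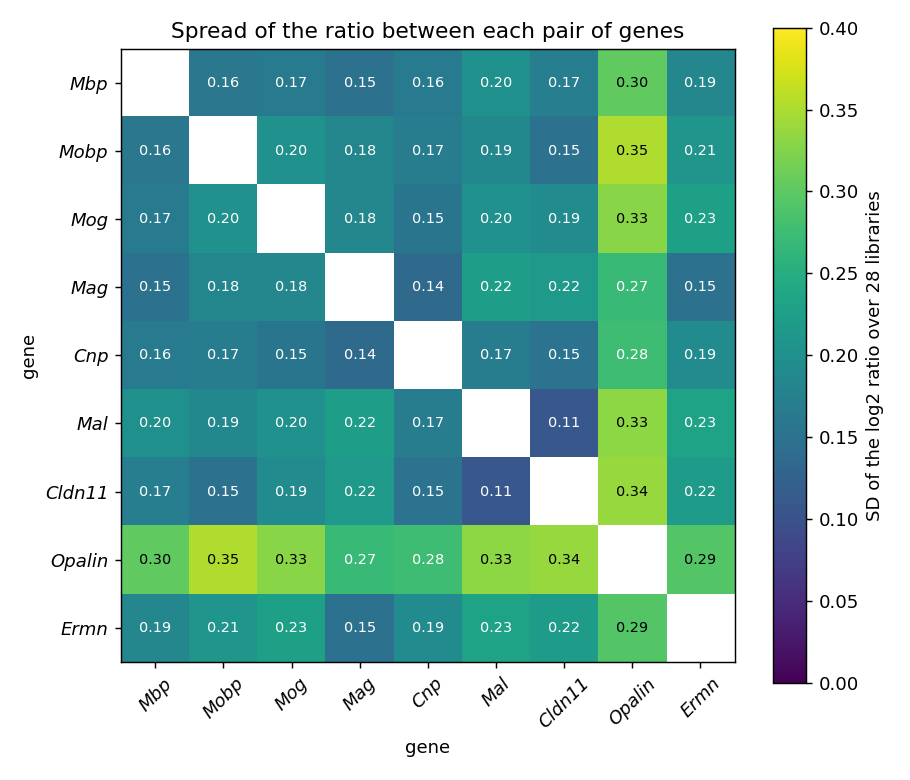
Standard deviation over the 28 libraries of the log2 count ratio of each pair of the 9 genes (both axes list the genes, colour and printed value give the SD). Mal with Cldn11 has the smallest value (0.11), and the row of Opalin holds the largest, up to 0.35 with Mobp.

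Genes outside the 9 with the most similar pattern were ranked by Pearson correlation with their mean log2 CPM, over 14970 genes. Over all 28 libraries, the top 5 included Tmem63a (0.97), a membrane channel, Fa2h (0.95), the hydroxylase of myelin lipids, Myrf (0.95), the transcription factor of myelin genes, and Lpar1 (0.94), a receptor for lysophosphatidic acid. In all, 23 genes exceeded 0.9, and the median gene had 0.03. After region means were removed, the top 5 included Tmem88b (0.93), Tmem63a (0.93), Bcas1 (0.91), a gene of young myelinating oligodendrocytes, and Plekhh1 (0.91), and 8 genes exceeded 0.9.

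Further genes of the oligodendrocyte lineage were read from fixed lists. For KO over WT in dorsal striatum, 3 of 15 other myelin membrane and junction genes were called higher and 0 lower (median log2 fold change 0.79). Of all genes, 0.354% were called higher. The 3 genes were Tmem88b (1.03, adjusted p = 0.0149, edgeR), Gjc3 (0.90, adjusted p = 0.0454), a connexin gene, and Cntn2 (0.80, adjusted p = 0.00370), an adhesion gene of the region beside the node. Of 5 lipid enzymes 0 were called (median 0.67), of 6 transcription factors 0 (median 0.39) and of 7 precursor genes 0 (median 0.06), beside a median of -0.00 over all genes. The summed level of the 7 precursor genes was 158 to 182 CPM in WT and 160 to 175 CPM in KO, which overlapped. That of the 6 transcription factors was 127 to 140 CPM in WT and 149 to 218 CPM in KO, which did not. In motor cortex the medians of KO over WT were -0.37, -0.65, -0.53 and -0.19 for the same 4 lists, with 0 called. For the difference between the KO minus WT changes of dorsal striatum and motor cortex, Cntn2 (1.18, adjusted p = 0.0235, edgeR) and Fa2h (1.49, adjusted p = 0.0294) were called. Of all genes, 0.12% were called in this direction. Only Cntn2 was called against hypothalamus (0.95, adjusted p = 0.0271, edgeR), beside 0.0935% of all genes.

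Between regions the lists followed the 9 genes in part. In dorsal striatum against motor cortex, 10 of the 15 other myelin genes were higher and 2 lower (21.4% and 22% of all genes), 4 of 5 lipid enzymes were higher, among them Fa2h (1.09, adjusted p = 2.03e-15, edgeR) and Ugt8a (0.91, adjusted p = 2.68e-07), and 4 of 6 transcription factors, among them Myrf (0.94, adjusted p = 8.48e-13) and Sox10 (0.89, adjusted p = 7.33e-09). In dorsal striatum against hypothalamus, where 1 of the 9 was higher and 0 lower, 4 of the 15 other myelin genes, 1 of 5 lipid enzymes, 3 of 6 transcription factors and 3 of 7 precursor genes were lower and 0 higher, against 30.7% of all genes lower and 25.5% higher. Olig1 (-0.73, adjusted p = 2.93e-12) and Olig2 (-0.54, adjusted p = 1.15e-05), regulators of the whole lineage, were among them. Peripheral myelin genes, as markers of nerve roots or vessels, had 33.1 to 77.3 CPM summed over 4 genes in all libraries except 1 KO ventral striatum library.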

How the data were processed

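The deposited files hold whole-number counts of single-end reads per Ensembl gene, which the authors made with Trimmomatic 0.32, Bowtie2 2.2.3, STAR 2.3.1z8, SAMtools 0.1.19 and HTSeq 0.6.1p1 on GRCm38 (submitters' processing notes). HTSeq's own tally lines were left out of library sizes. Between 44.8% and 54.2% of tallied reads fell on genes. Libraries were made with an unstranded kit. Counts were fitted in edgeR 4.0.16 (R 4.3.3) with TMM scaling, 12 group means over 28 libraries, and likelihood ratio tests on 14979 genes, after the methods of the study. Benjamini-Hochberg adjustment ran over all of them and the threshold was 0.05. Ratios were tested by exact permutation in Python 3.11.15. The fit was tested on simulated data. Alternatives included edgeR's quasi-likelihood test and DESeq2 1.42.0.

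The members and lists were chosen with earlier results of these data known. Genes outside the 9 were named as the top 5 by correlation, or as called members of the lists, and some genes that these rules name are not reported here. No library of a group repeated another within counting noise (21 pairs). Libraries with the same number did not deviate together (34 pairs, mean correlation 0.007, 0 above 0.1), so numbers were not treated as pairs. Such libraries may still come from the same mouse, which the labels do not state and this check cannot exclude.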

Additional observations from a re-analysis of the deposited data

Results flagged for a closer look

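Of 72 sets of 5 to 8 libraries examined, 2 held a library far from the others, where chance gives about 3.6. Mbp in Het 6 of the hypothalamus had a log2 CPM of 11.077, and the nearest hypothalamus library had 10.59. The log2 ratio of Opalin to the other 8 genes was -3.764 in Het 5 of the motor cortex, and the nearest motor cortex library had -3.458.

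In 27 tests of whether the KO minus WT change in dorsal striatum differed from that in another region, 6 passed an adjusted p of 0.05. The difference was 0.977 for Mobp against hypothalamus. Against motor cortex, with its single WT library, it was 1.477 for Mobp, 1.356 for Cldn11, 1.223 for Cnp, 1.352 for Ermn and 1.594 for Mog.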

How the results depend on the processing

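The 9 calls against motor cortex held for dorsal striatum, ventral striatum and hypothalamus in every alternative run. Other counts of the 9 genes called depended on the settings. The quasi-likelihood test called 0 for KO over WT in dorsal striatum and 0 for its difference from hypothalamus and from motor cortex. DESeq2 called 0 for dorsal against ventral striatum, 0 for the difference from hypothalamus and 1 for that from motor cortex. Scaling by library size alone moved the median of all genes by 0.28 for KO over WT in dorsal striatum and called 8 there, 4 for Het over WT in dorsal striatum, 5 for dorsal against ventral striatum, 6 for dorsal striatum against hypothalamus (Mobp turned to -0.1528), 0 for ventral striatum against hypothalamus and 5 for the difference from hypothalamus. Also leaving out mitochondrial genes, chosen after the data were seen, gave 5, 3 and 2 for dorsal against ventral striatum, dorsal striatum against hypothalamus and the difference from hypothalamus. Without a filter the last was 2. Fitting only the regions compared called 5 for KO over WT in dorsal striatum, 4 in motor cortex, 2 for Het over WT in dorsal striatum, 3 for KO over Het in motor cortex, 3 for dorsal against ventral striatum and 8 for the difference from motor cortex. The cause was not tested. The shares of all genes called under these settings are not given here, so these counts show only that the calls moved.

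The replicate block gave 0 for the difference from hypothalamus with either test, 6 for that from motor cortex (0 with the quasi-likelihood test) and 0 of 54 region ratios. That exact paired test cannot go below an unadjusted p of 0.0625 with 5 pairs, 0.0156 with 7 or 0.0078 with 8, its lowest adjusted p was 0.121, and the Mobp shift between dorsal and ventral striatum was 0.32 in it, in place of 0.31. The block changed no other count beyond 1.5 times. For levels between members, Mbp was 3.383 times Mal per kilobase by the longest transcript, in place of 1.916. Leaving out 1 library at a time gave 0 to 4 calls for KO over WT in dorsal striatum, 0 to 2 for dorsal against ventral striatum, 0 to 3 for dorsal striatum against hypothalamus (3 without Het 6 of the hypothalamus), 2 to 4 for ventral striatum against hypothalamus, 0 to 2 for the difference from hypothalamus, 0 to 5 for that from motor cortex and 1 to 8 of 54 ratios. The lone WT library of motor cortex could not be left out. Of the values of single genes followed in the leave-one-out fits, 480 were rated the same, 104 weaker and 1 stronger. The upper ends of the ranges above show that calls were also gained.

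The limits are depth and number. Opalin had 24 to 102 counts a library. A gene of 2 libraries against 2 needs a large change to pass over 14979 genes, and motor cortex has 1 WT library.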
